A study of Mus musculus with 12 samples.

Results

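The 9 genes described here mark steps of the B lymphocyte lineage: Ebf1, Pax5, Vpreb1 and Igll1 for early B cells, Cd79a, Cd79b and Ms4a1 for mature B cells, and Jchain and Mzb1 for plasma cells. They were chosen by symbol, as 9 of the 56832 gene entries of the count table, and all 9 were found and passed the filter on low counts. RNA sequencing was run on bone marrow macrophages sorted as CD45+, F4/80+, Ly6g- and Ly6c-, from leukemic and from healthy mice. The leukemic mice had been transplanted with cells of the bcCML model (a mouse model of blast-crisis chronic myeloid leukemia) and were at a late stage, labelled day 11. The 12 libraries form 4 groups of 3: female leukemic, male leukemic, female non-leukemic and male non-leukemic. Non-leukemic mice were described as healthy, with no transplant or other treatment named. The sources used here give no strain, age or genetic alteration of the mice, and do not say whether each library came from its own animal. P values therefore reflect only how libraries of a group spread, which may be technical. The sort names markers of leukocytes, macrophages, neutrophils and monocytes but no B or T cell marker.

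B lymphocytes are made in the bone marrow, where EBF1 and PAX5, a pair of transcription factors, set and hold B cell fate. Early B cells carry a surrogate light chain made of the VPREB1 and IGLL1 proteins before they have rearranged a light chain gene. The CD79A and CD79B proteins form the signalling dimer of the B cell receptor and are made from the early stages onward, while Ms4a1 encodes CD20, a surface protein of later B cells. Plasma cells secrete antibody and settle in the marrow. Jchain encodes the joining chain that links antibody units in IgM and IgA, and Mzb1 encodes a protein of the endoplasmic reticulum that helps antibody assembly. Surrogate light chain and antibody are products of the B lineage, not of macrophages.

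Promoter sequences, from 250 bases before to 50 bases after each gene's start, were on hand for 6 of the 9 genes (RefSeq, GRCm38.p6), and 4 of these are shown, which cover the 3 stages compared below and are the 4 that hold the motif marked. Capitals mark E boxes, 6-base motifs bound by E proteins such as the B cell regulator TCF3. The windows are, on the minus strand, chr16:16869206-16869505 for Vpreb1, chr16:16863936-16864235 for Igll1 and chr5:88527848-88528147 for Jchain, and on the plus strand chr7:24897247-24897546 for Cd79a. Each is printed 5′ to 3′ along its gene.
Vpreb1: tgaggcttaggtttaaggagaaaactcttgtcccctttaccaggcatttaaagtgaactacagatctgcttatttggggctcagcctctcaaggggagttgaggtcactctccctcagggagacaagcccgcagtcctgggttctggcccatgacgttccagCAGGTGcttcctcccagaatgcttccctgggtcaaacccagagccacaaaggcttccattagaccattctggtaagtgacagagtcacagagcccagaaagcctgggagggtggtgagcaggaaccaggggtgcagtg
Igll1: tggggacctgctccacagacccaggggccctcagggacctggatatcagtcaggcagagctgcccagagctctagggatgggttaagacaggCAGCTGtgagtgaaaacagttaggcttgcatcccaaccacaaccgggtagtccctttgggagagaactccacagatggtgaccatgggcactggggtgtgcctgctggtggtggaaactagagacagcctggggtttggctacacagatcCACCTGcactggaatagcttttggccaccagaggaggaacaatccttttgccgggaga
Cd79a: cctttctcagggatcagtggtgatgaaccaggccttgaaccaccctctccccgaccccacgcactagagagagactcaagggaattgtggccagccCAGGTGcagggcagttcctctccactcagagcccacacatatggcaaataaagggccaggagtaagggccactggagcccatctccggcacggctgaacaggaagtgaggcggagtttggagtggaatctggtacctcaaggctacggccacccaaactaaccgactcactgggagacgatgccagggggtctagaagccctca
Jchain: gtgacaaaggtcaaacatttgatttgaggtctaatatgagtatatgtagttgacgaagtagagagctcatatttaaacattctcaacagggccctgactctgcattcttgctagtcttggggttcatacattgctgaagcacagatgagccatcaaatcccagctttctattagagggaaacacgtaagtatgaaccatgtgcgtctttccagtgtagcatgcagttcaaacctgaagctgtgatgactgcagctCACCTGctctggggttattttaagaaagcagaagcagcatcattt
The E box CAGGTG, or its reverse complement CACCTG, stood in the windows of 4 of the 6 genes, those printed, and not in those of Ebf1 and Pax5. It lay at base 163 in Vpreb1, 243 in Igll1, 97 in Cd79a and 256 in Jchain. Both strands were searched, and 20.2% of 32851 promoter windows of the same length held it. A second E box, CAGCTG, which is its own reverse complement, stood at base 93 of the Igll1 window and in 16.3% of all windows. Neither TCCCNNGGGA, the palindrome bound by EBF1 (0.904% of windows), nor ATTTGCAT, the octamer of immunoglobulin promoters (1.74% of windows, with its reverse complement ATGCAAAT), was found in the windows of the 6 genes.

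The libraries were deep, with 22437689 to 30014855 counts in leukemic and 16911827 to 26611831 in non-leukemic libraries. A count of 0 would allow up to 3 counts, or 0.1 to 0.177 CPM (the count scaled to a common library total), and every member lay above that in all 12 libraries. In female leukemic replicate 1 only 17891 genes had a count, where each of the others had 19521 to 21247. The macrophage label was checked with 15 macrophage markers, all detected in every library, which held 0.0584 to 0.131% of counts in leukemic and 0.167 to 0.516% in non-leukemic libraries. Of these 15, 9 fell in leukemic libraries and 0 rose, with a median log2 fold change of -1.21. Over all genes tested, 9.2% fell and 8.71% rose. Markers of other cells were present too and also moved with leukemia. Summed T and NK cell markers held 0.138 to 0.292% of counts in leukemic against 0.0318 to 0.0618% in non-leukemic libraries, and 15 of 15 rose. Summed erythroid markers held 0.0786 to 0.153% of counts in leukemic against 1.503 to 1.95% in non-leukemic libraries, and 11 of 11 measured fell. Neutrophil markers held 1.30 to 2.79% against 2.92 to 6.82%, with 9 of 14 lower. Marrow stromal markers held 0.00124 to 0.00813% against 0.00364 to 0.0589%, with 3 to 8 of 12 at 0 in a library. Stromal Ebf3, a relative of Ebf1, was at 0 in all 12 libraries. The part of these cells in the results below was not tested. In such bulk libraries, fewer cells of a type and less RNA per cell cannot be told apart.

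Across the 12 libraries, these 9 genes did not separate leukemic from non-leukemic macrophage sorts. None of the 9 passed an adjusted p of 0.05 in edgeR's quasi-likelihood test with sex as a term, none had an unadjusted p under 0.05, and none passed with DESeq2 or limma-voom. Over all 15758 genes tested, 17.9% passed, 8.71% higher and 9.2% lower. The CPM of leukemic and non-leukemic libraries overlapped for all 9 members, while 5.05% of genes lay wholly above and 3.63% wholly below. The members' median log2 fold change was -0.26, beside a median of -0.01 for all genes. What varied most was the level of plasma cell genes between libraries, as the plot of CPM by library shows.

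**Figure D1:**
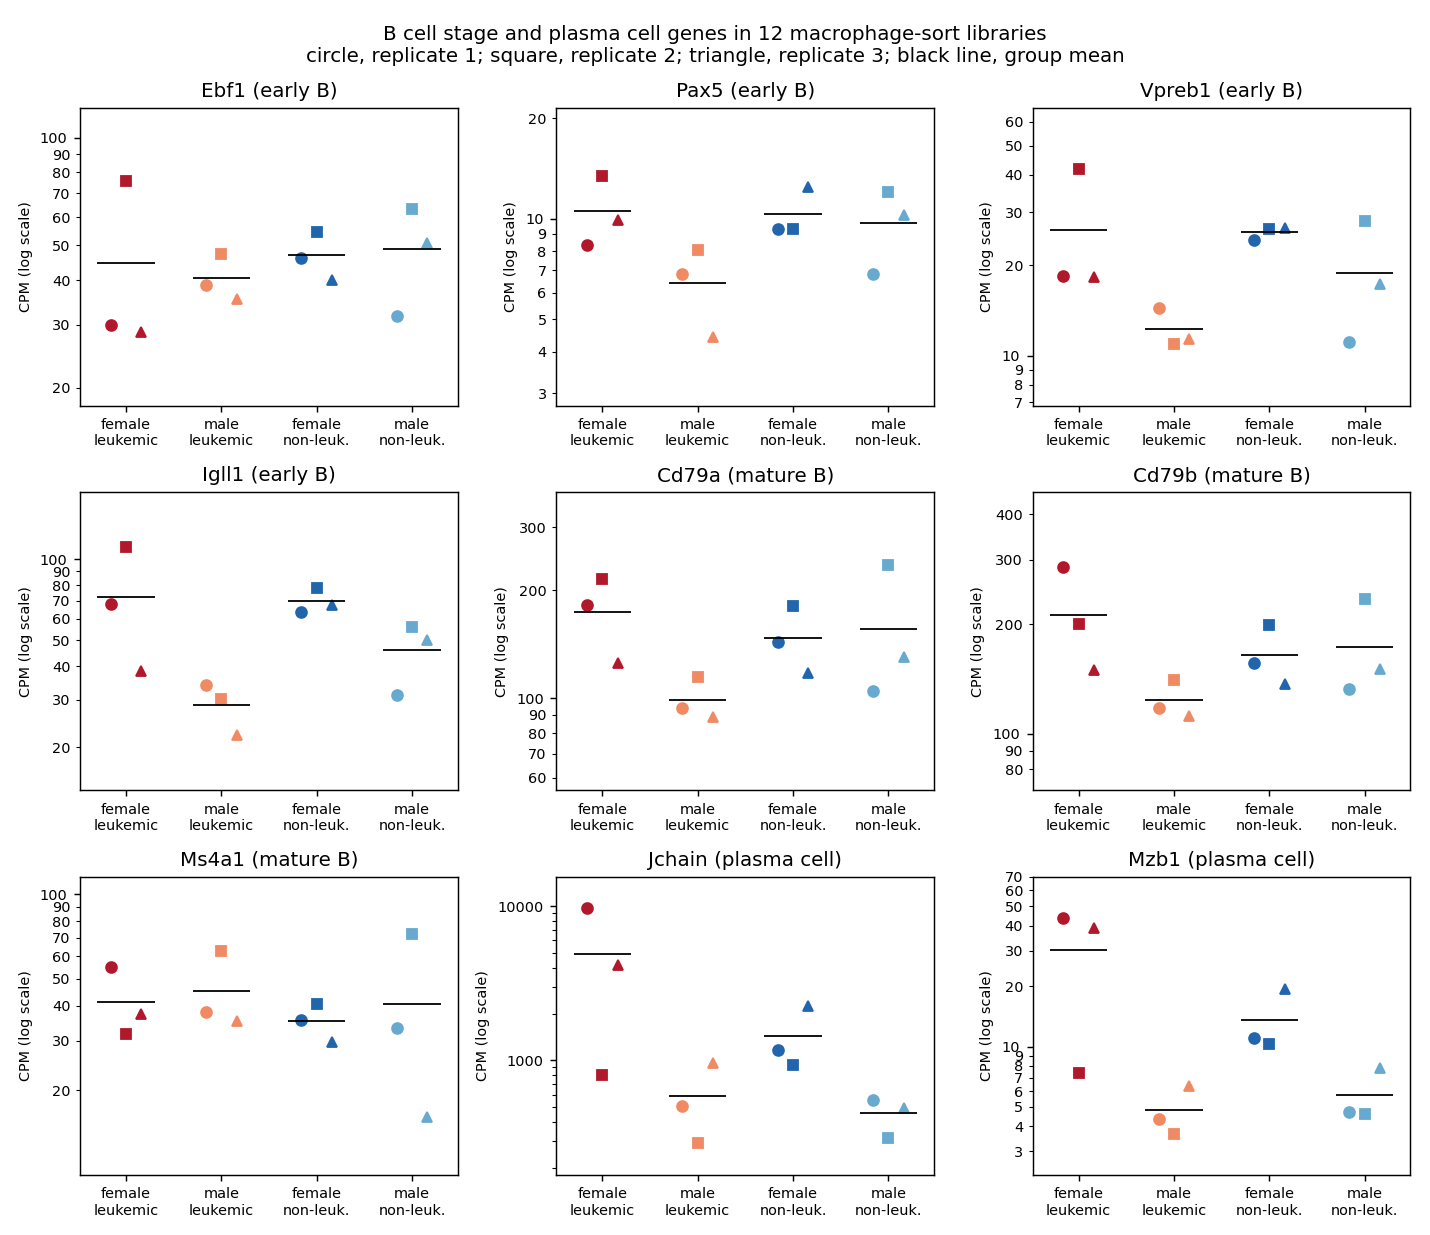
CPM of each of the 9 genes (log scale) in female leukemic, male leukemic, female non-leukemic and male non-leukemic libraries, 3 each. Points are libraries, with shapes for the replicate number, and black lines are group means. Jchain and Mzb1 spread over 33.4-fold and 11.9-fold ranges, and the other 7 genes over 2.56-fold to 4.99-fold ranges.

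Ebf1 had 29.9, 75.9 and 28.6 CPM in female leukemic and 38.7, 47.4 and 35.5 CPM in male leukemic libraries, against 46.2, 54.7 and 40.1 CPM in female non-leukemic and 31.9, 63.4 and 51.0 CPM in male non-leukemic libraries. Its lowest and its highest value both lay in female leukemic libraries, so the leukemic range enclosed the non-leukemic one. The mean was 42.7 ± 17.6 CPM in leukemic and 47.9 ± 11.1 CPM in non-leukemic libraries (SD, n = 6 each), a log2 fold change of -0.26 ± 0.24 (SE; 95% interval -0.77 to 0.25).

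Pax5, the least abundant early gene, had 8.36, 13.4 and 9.89 CPM in female leukemic and 6.83, 8.05 and 4.41 CPM in male leukemic libraries, against 9.28, 9.34 and 12.4 CPM in female non-leukemic and 6.84, 12.1 and 10.2 CPM in male non-leukemic libraries. The female libraries of both conditions overlapped, and male leukemic replicate 3 was the lowest of all. Leukemic libraries averaged 8.50 ± 3.04 CPM and non-leukemic libraries 10.03 ± 2.05 CPM (log2 fold change -0.36 ± 0.24).

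Vpreb1 had 18.4, 41.9 and 18.3 CPM in female leukemic and 14.4, 10.9 and 11.3 CPM in male leukemic libraries, against 24.4, 26.5 and 26.7 CPM in female non-leukemic and 11.1, 28.1 and 17.3 CPM in male non-leukemic libraries. Female leukemic replicate 2 was the highest of the 12, and the 3 male leukemic libraries were among the lowest. The log2 fold change was -0.38 ± 0.26 (leukemic 19.2 ± 11.6 CPM, non-leukemic 22.3 ± 6.71 CPM). Transcripts of Vpreb1 and its near copy Vpreb2 were identical at 739 of 759 aligned bases (97.4%), so reads may have been split or lost between them. Vpreb2 itself had 11 to 176 counts.

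Igll1, whose protein pairs with VPREB1, had 68.0, 111 and 38.5 CPM in female leukemic and 33.9, 30.3 and 22.2 CPM in male leukemic libraries, against 63.8, 78.1 and 67.2 CPM in female non-leukemic and 31.4, 56.0 and 50.1 CPM in male non-leukemic libraries. Every female library of a condition lay above every male library of that condition. Igll1 averaged 50.6 ± 33.3 CPM in leukemic and 57.8 ± 16.1 CPM in non-leukemic libraries (log2 fold change -0.39 ± 0.26, adjusted p = 0.352 with edgeR), and it exceeded Vpreb1 by 1.95 to 3.70 times in CPM within each library.

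Cd79a had 182, 215 and 126 CPM in female leukemic and 94.3, 114 and 88.8 CPM in male leukemic libraries, against 143, 181 and 118 CPM in female non-leukemic and 105, 235 and 130.4 CPM in male non-leukemic libraries. Cd79b had 287, 199 and 149.7 CPM in female leukemic and 118, 141 and 112 CPM in male leukemic libraries, against 157, 198 and 137 CPM in female non-leukemic and 133, 235 and 151 CPM in male non-leukemic libraries. For both chains the female leukemic libraries were all above the male leukemic ones, and each condition overlapped the other within each sex. Cd79a averaged 137 ± 50.9 CPM in leukemic and 152 ± 48.2 CPM in non-leukemic libraries, and Cd79b averaged 168 ± 66.2 and 168 ± 40.0 CPM. Their log2 fold changes were -0.28 ± 0.25 and -0.11 ± 0.24, and the ratio of Cd79a to Cd79b stayed between 0.635 and 1.08 over the 12 libraries.

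Ms4a1 had 54.9, 31.8 and 37.4 CPM in female leukemic and 38.0, 62.7 and 35.3 CPM in male leukemic libraries, against 35.7, 40.6 and 29.8 CPM in female non-leukemic and 33.4, 72.0 and 16.03 CPM in male non-leukemic libraries. Both its highest and its lowest value were in male non-leukemic libraries. Its log2 fold change was 0.15 ± 0.30 (95% interval -0.50 to 0.80; leukemic 43.3 ± 12.4 CPM, non-leukemic 37.9 ± 18.7 CPM). The summed CPM of Vpreb1 and Igll1 per CPM of Ms4a1, a ratio of early to later B cell transcripts, was 1.57, 4.80 and 1.52 in female leukemic and 1.27, 0.657 and 0.949 in male leukemic libraries. It was 2.47, 2.58 and 3.15 in female non-leukemic and 1.27, 1.17 and 4.21 in male non-leukemic libraries, so the conditions overlapped in this ratio too.

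Jchain was the most abundant member in every library and the most variable. It had 9699, 809 and 4186 CPM in female leukemic and 506, 290.1 and 963 CPM in male leukemic libraries, against 1173, 932 and 2246 CPM in female non-leukemic and 553, 315 and 494 CPM in male non-leukemic libraries. Female leukemic replicates 1 and 3 were above all others, whereas female leukemic replicate 2 lay within the non-leukemic range. Over 6 libraries a condition the medians were 886 CPM in leukemic and 742 CPM in non-leukemic libraries, and the log2 fold change was 1.03 ± 0.56 (95% interval -0.19 to 2.24, adjusted p = 0.245 with edgeR). Without female leukemic replicate 1 it was 0.46 (adjusted p = 0.468). Jchain alone took 0.970% of all counts in that library and as little as 0.029% in male leukemic replicate 2.

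Mzb1 followed the same libraries at lower level. It had 43.8, 7.34 and 39.2 CPM in female leukemic and 4.38, 3.67 and 6.37 CPM in male leukemic libraries, against 11.0, 10.3 and 19.3 CPM in female non-leukemic and 4.71, 4.61 and 7.78 CPM in male non-leukemic libraries. Again female leukemic replicates 1 and 3 were the highest of the 12 and replicate 2 lay among the rest. The medians were 6.86 CPM in leukemic and 9.06 CPM in non-leukemic libraries, the reverse order of the fitted log2 fold change of 0.41 ± 0.46 (95% interval -0.58 to 1.41).

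Scaled to exon length, the order of the mean levels was the same in both conditions. Mean CPM per kilobase of exon was 1089 in leukemic and 378 in non-leukemic libraries for Jchain, 117 and 118 for Cd79b, 93.9 and 104 for Cd79a, 23.4 and 26.7 for Igll1, and 16.02 and 18.6 for Vpreb1. Mzb1 (14.4 and 7.92), Ms4a1 (7.004 and 6.13), Ebf1 (4.37 and 4.91) and Pax5 (0.960 and 1.13) followed. In both conditions the library ranges of neighbours in this order overlapped, except between Cd79a and Igll1 and between Ebf1 and Pax5.

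Within each sex, no member passed in edgeR, DESeq2 or limma-voom, beside 8.43% of genes in females (3.84% higher, 4.59% lower) and 7.37% in males (3.34% higher, 4.04% lower). The leukemic and non-leukemic libraries of a sex overlapped for all 9, while 13.3% of genes lay wholly above and 14.6% wholly below in females, and 23.7% above and 10.7% below in males. In females, the log2 fold change was 1.85 ± 0.74 for Jchain (95% interval 0.24 to 3.45, unadjusted p = 0.0276, adjusted p = 0.15 with edgeR) and 1.21 ± 0.56 for Mzb1 (adjusted p = 0.221). The 7 B cell genes ranged from -0.10 to 0.40 in females. Female leukemic replicate 2 decided the call: without it, both plasma cell genes passed, Jchain at 2.40 (adjusted p = 0.0282) and Mzb1 at 1.72 (adjusted p = 0.0233). Without female leukemic replicate 1, Jchain was at 0.75 (adjusted p = 0.521) and Mzb1 at 0.74 (adjusted p = 0.475).

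In males, 6 of the 7 B cell genes had negative values. Log2 fold changes were -0.83 ± 0.33 for Igll1, -0.80 ± 0.29 for Cd79a, -0.77 ± 0.35 for Vpreb1, -0.75 ± 0.31 for Pax5, -0.63 ± 0.29 for Cd79b and -0.42 ± 0.34 for Ebf1. Of these, 5 had an unadjusted p under 0.05, as did 3393 of the 15758 genes tested, and the lowest adjusted p was 0.127, for Cd79a (edgeR). Ms4a1 (0.04 ± 0.44), Jchain (0.21 ± 0.71) and Mzb1 (-0.42 ± 0.57) had wide intervals that included 0. The difference between the sexes in the leukemia effect, tested as an interaction, was positive for all 9 members in edgeR, largest for Jchain (1.64 ± 1.02 on the log2 scale), Mzb1 (1.62 ± 0.80), Cd79a (1.05 ± 0.41) and Cd79b (1.03 ± 0.40). For Ms4a1 it turned to -0.04 with limma-voom, and for Ms4a1 and Ebf1 it changed sign when single libraries were left out. None passed (adjusted p = 0.819 for Mzb1, Cd79a and Cd79b, 0.824 for Jchain with edgeR), and of all genes 0% passed, with 925 at an unadjusted p under 0.05 and 23 called by DESeq2.

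By their CPM ranges, more members were separated by sex than by leukemia. Among leukemic mice, the 3 female libraries lay above the 3 male ones for 6 members (Pax5, Vpreb1, Igll1, Cd79a, Cd79b and Mzb1), as for 5.13% of all genes. Among non-leukemic mice this held for 3 members (Igll1, Jchain and Mzb1), as for 6.2% of genes, and no member had all female libraries below all male ones in either condition (15% of genes did among leukemic and 4.42% among non-leukemic mice). Jchain averaged 3174 ± 3437 CPM in females and 520.0 ± 242 CPM in males, Mzb1 21.8 ± 15.8 and 5.25 ± 1.52 CPM, Igll1 71.1 ± 23.5 and 37.3 ± 13.0 CPM, and Vpreb1 26.0 ± 8.63 and 15.5 ± 6.64 CPM (SD, n = 6 each). In the sex term of the same fit, a contrast added after the data were seen, log2 female over male was 2.46 ± 0.58 for Jchain, 2.02 ± 0.47 for Mzb1, 1.02 ± 0.26 for Igll1 and 0.83 ± 0.26 for Vpreb1. These had unadjusted p values of 0.001, 0.000909, 0.00176 and 0.00752, and adjusted p values of 0.298, 0.298, 0.35 and 0.5 (edgeR). No gene passed this contrast (0% of 15758, with 1132 at an unadjusted p under 0.05), and Xist, the RNA of the inactive X chromosome, missed it too (28.8 to 41.6 CPM in females, 0 to 3.19 CPM in males, adjusted p = 0.0857). Genes of the Y chromosome had some counts in female libraries, up to 5.75 CPM for Eif2s3y, 4.06 CPM for Ddx3y and 3.65 CPM for Uty, against 42.1 to 82.4, 38.7 to 63.4 and 12.2 to 31.0 CPM in male libraries. The female maxima of Ddx3y and Uty lay in female leukemic replicate 3. That of another Y gene, Kdm5d (3.265 CPM, against 8.77 to 19.9 CPM in males), lay in female leukemic replicate 1. Both libraries were among those highest in Jchain and Mzb1. Whether these counts bear on the female values was not tested. DESeq2 called 113 genes, among them Jchain, Mzb1 and Igll1 (adjusted p = 0.0123, 0.00262 and 0.0306). Without female leukemic replicate 1, the values were 1.86 for Jchain and 1.71 for Mzb1. Ebf1 (0.09 ± 0.24) and Ms4a1 (-0.07 ± 0.30) had intervals on both sides of 0.

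**Figure D2:**
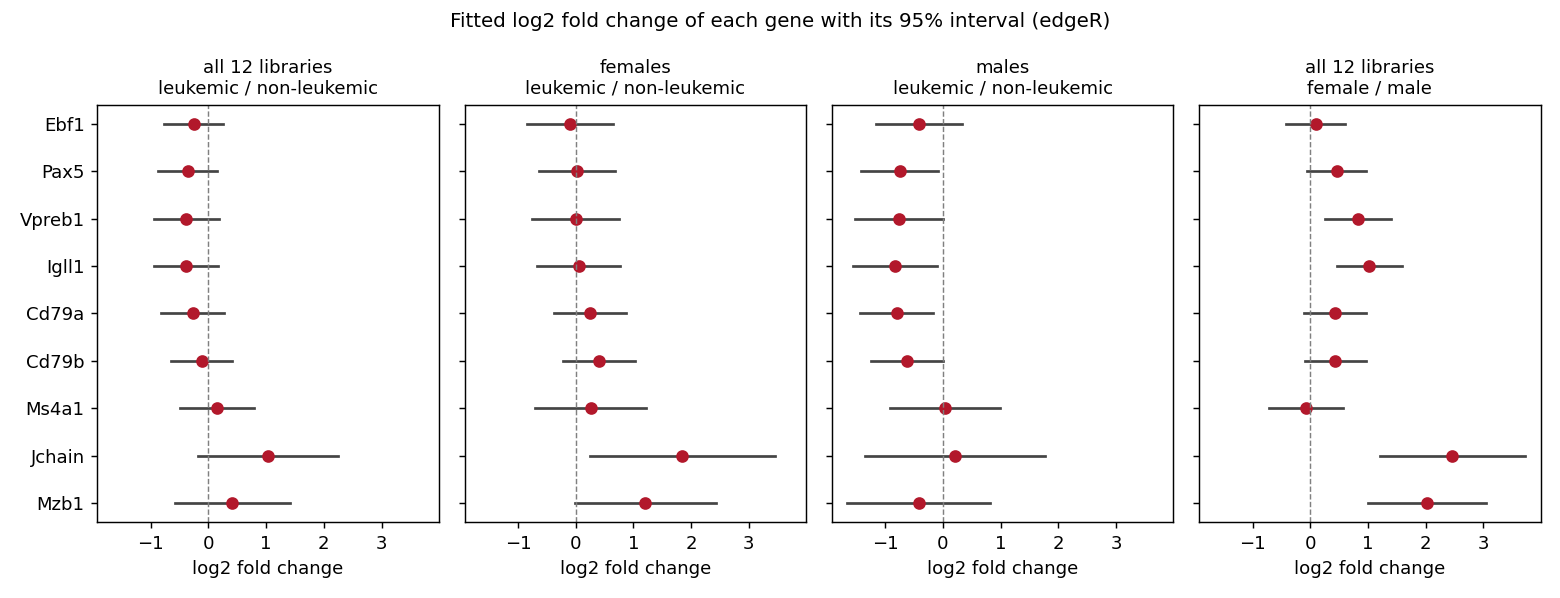
Fitted log2 fold change of each gene (points) with its 95% interval (lines) for leukemic over non-leukemic in all 12 libraries, in females and in males, and for female over male. In the leukemic panels none of the 9 passed. Jchain reached 1.85 in females and 0.21 in males, and Cd79a 0.25 and -0.80. In the female over male panel the intervals of Jchain, Mzb1, Igll1 and Vpreb1 lay above 0, and no gene passed.

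Members of a stage varied together, but early and mature genes were not set apart, since Cd79a varied with both. Pearson's r of log2 CPM was taken over the 12 libraries after each group's mean had been removed, as a description, since the libraries share depth and cell makeup. The 4 early genes had r of 0.65 to 0.88 with each other in 6 pairs, highest for Ebf1 with Vpreb1. The 3 mature genes had r of 0.60 to 0.85 in 3 pairs, and Jchain with Mzb1 had 0.92. Between stages, r was positive in all 12 pairs of an early and a mature gene (0.08 to 0.78). It was negative in all 6 pairs of a mature and a plasma cell gene (-0.54 to -0.06). It was also negative in all 8 pairs of an early and a plasma cell gene, from -0.86 for Ebf1 with Jchain to -0.42. The mean of these 8 was -0.65, and it rested partly on female leukemic replicate 2, in which Ebf1 and Vpreb1 were highest and Jchain and Mzb1 lowest of their group: without it the mean was -0.25. The mean over the 3 mature pairs was 0.72, and 0.45 without male non-leukemic replicate 2. Cd79a was nearer to the early genes (0.49 to 0.78) than Ms4a1 was (0.08 to 0.12). The highest r of Cd79a with a member was with Cd79b (0.85). Its r with Ebf1 (0.78), Igll1 (0.76) and Vpreb1 (0.72) was above its r with Ms4a1 (0.60), and its r with Pax5 (0.49) was below.

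**Figure D3:**
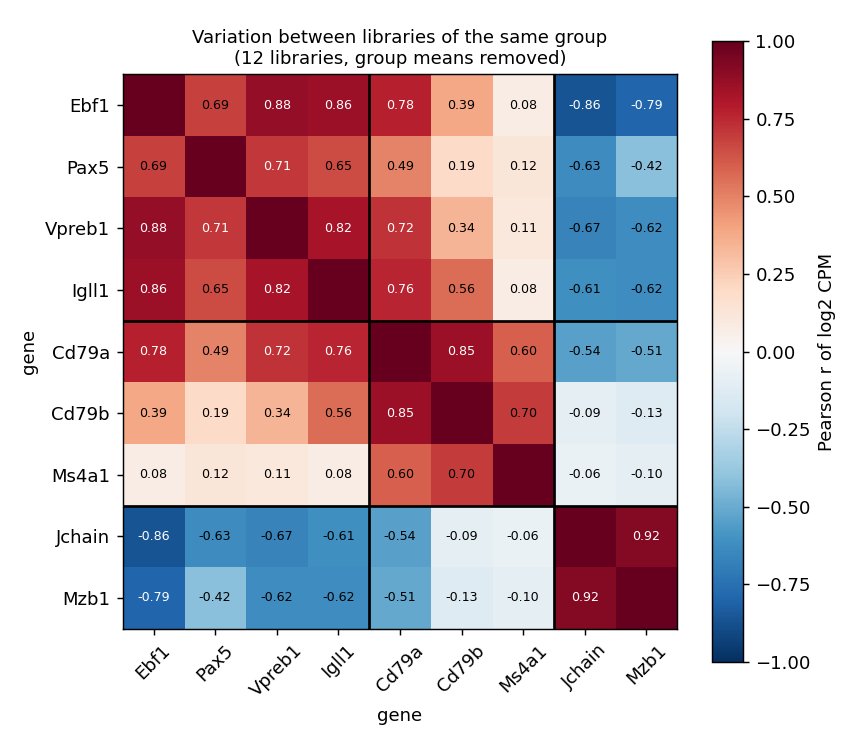
Pearson's r of log2 CPM between each pair of the 9 genes over 12 libraries with the mean of each of the 4 groups removed, with colour from blue (negative) to red (positive). Black lines divide early, mature and plasma cell genes. The early block (0.65 to 0.88) and the pair of Jchain and Mzb1 (0.92) are red, and the block joining early with plasma cell genes (-0.86 to -0.42) is blue.

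Of 13528 other genes, predicted genes left out, those most like each member were found by the same measure. Among so many genes and only 12 libraries, high values can arise by chance. These nearest genes were not tested, nor checked with single libraries left out. Jchain was closest to Igkc (0.989), the kappa light chain constant region, then Zmat3 (0.953) and Ighm (0.949), the heavy chain of IgM. Mzb1 was closest to Chst1 (0.983), Ighm (0.971) and Derl3 (0.960), a factor of protein disposal at the endoplasmic reticulum. Ebf1 was closest to Cd209e (0.946), Klhl14 (0.942) and Plekha2 (0.934), and Klhl14 was also among the 3 nearest to Vpreb1 (0.932), after Dpy19l3 (0.939) and Ptp4a3 (0.936). Pax5 was closest to Ggn (0.931), Irf4 (0.917) and Tmem74 (0.913), and Igll1 to Tmem108 (0.957), Smarcd1 (0.953) and Sytl4 (0.948). Cd79a had Pafah1b3 (0.962), Id3 (0.955) and Uchl1 (0.932), Cd79b had Selenoh (0.969), Tmem68 (0.965) and Hspb11 (0.965), and Ms4a1 had Dqx1 (0.962), Fam185a (0.923) and Rpp14 (0.916).

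The most abundant antibody transcripts, Igkc and Ighm, were high in the same libraries as Jchain. Igkc had 41030, 3003 and 21940 CPM in female leukemic and 2269, 1363 and 4840 CPM in male leukemic libraries, against 5418, 3327 and 8970 CPM in female non-leukemic and 1936, 1187 and 2265 CPM in male non-leukemic libraries. Ighm had 34840, 3207 and 28740 CPM in female leukemic and 3497, 2203 and 4265 CPM in male leukemic libraries, against 6504, 5404 and 12910 CPM in female non-leukemic and 2665, 2006 and 2737 CPM in male non-leukemic libraries. Female leukemic replicates 1 and 3 were again the highest for both. The 11 constant region genes together took 8.41% and 5.43% of all counts in these libraries and 0.386 to 2.49% in the other 10. Iglc2, a lambda light chain, had 4378 CPM in female leukemic replicate 1 and 47.9 to 218 CPM elsewhere. Some other heavy chains peaked in other libraries: Igha in female leukemic replicate 2 (2506 CPM), Ighg2c in male leukemic replicate 3 (605 CPM), Ighg3 in female non-leukemic replicate 3 (767 CPM) and Ighg1 in male non-leukemic replicate 3 (302 CPM). Ighg2b was highest in female leukemic replicates 1 and 3 (749 and 630 CPM). Ighg2c (408 and 384 CPM) and Ighg3 (433 and 147 CPM) were also high in these 2 libraries.

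Of the 11 constant region genes, 2 rose and 0 fell in leukemic libraries, where 8.71% of all genes rose and 9.2% fell. Ighg2b rose by 1.84 ± 0.58 (adjusted p = 0.044 with edgeR) and Igha by 0.84 ± 0.27 (adjusted p = 0.0444) on the log2 scale. Ighg2b, a constant region of IgG, had 749, 130.1 and 630 CPM in female leukemic and 58.7, 37.0 and 95.6 CPM in male leukemic libraries, against 75.1, 33.0 and 128 CPM in female non-leukemic and 11.1, 24.5 and 51.9 CPM in male non-leukemic libraries. Igha, the heavy chain of IgA, had 1594, 2506 and 1908 CPM in female leukemic and 812, 717 and 2193 CPM in male leukemic libraries, against 903, 995 and 1211 CPM in female non-leukemic and 883, 437 and 671 CPM in male non-leukemic libraries. Both stood close to the threshold, and the number of constant region genes that passed was 0 or 1 when any single library other than male leukemic replicate 2 was left out. It was 0 without the low-count filter or without the sex term, and 1 with limma-voom or with a replicate block. Igkc (1.23 ± 0.57, adjusted p = 0.169) and Ighm (0.88 ± 0.49, adjusted p = 0.251) did not pass. The list's median log2 fold change was 0.88.

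Of 18 other plasma cell genes, 5 rose and 2 fell in leukemic libraries, while Jchain and Mzb1 did not pass. Over all genes tested, 8.71% rose and 9.2% fell, so the 2 that fell were near the share of all genes. The list's median log2 fold change was 0.58. Those that rose encode helpers of protein folding and disposal in the endoplasmic reticulum, which other secreting or stressed cells also use: Hsp90b1 (0.81 ± 0.16, adjusted p = 0.00434 with edgeR), Creld2 (0.88 ± 0.22, adjusted p = 0.0141), Txndc5 (0.88 ± 0.23, adjusted p = 0.0199), Fkbp11 (0.92, adjusted p = 0.0308) and Edem1 (0.66, adjusted p = 0.0311). Tent5c, which encodes a poly(A) polymerase, fell by 1.69 ± 0.26 (adjusted p = 0.000708), to a mean of 41.0 ± 16.1 CPM in leukemic against 126 ± 21.2 CPM in non-leukemic libraries. The elongation factor gene Ell2 fell by 0.77 (adjusted p = 0.0358). The regulators Xbp1 (0.38 ± 0.27), Irf4 (0.28 ± 0.19) and Prdm1 (0.99 ± 0.34, adjusted p = 0.0616) and the surface marker Sdc1 (0.36 ± 0.30) did not pass. Leaving out single libraries moved the 5 to between 2 (without female non-leukemic replicate 2) and 8 (without male non-leukemic replicate 3), with 3 without female leukemic replicate 3, female non-leukemic replicate 1 or male non-leukemic replicate 1. The 2 that fell became 1 without any single library other than female leukemic replicate 3 and male non-leukemic replicates 2 and 3.

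In females, 5 plasma cell genes rose and 1 fell (median 0.99), where 3.84% of all genes rose and 4.59% fell. Derl3 was among those that rose (2.06 ± 0.57, adjusted p = 0.047 with edgeR). In males 0 rose and 1 fell (median 0.10), where 3.34% of all genes rose and 4.04% fell. Derl3 had 88.1, 17.6 and 62.6 CPM in female leukemic and 9.52, 9.17 and 12.8 CPM in male leukemic libraries, against 11.7, 8.49 and 22.0 CPM in female non-leukemic and 5.98, 6.504 and 13.0 CPM in male non-leukemic libraries. The highest values were once more in female leukemic replicates 1 and 3. Its interaction with sex did not pass (1.93 ± 0.79, adjusted p = 0.819).

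Of 20 other early B cell genes, 3 rose and 1 fell (median 0.09), where 8.71% of all genes rose and 9.2% fell. Ikzf3, a lymphoid transcription factor that T cells also express, rose by 1.29 ± 0.15 (adjusted p = 9.09e-05 with edgeR) to 66.3 ± 10.7 CPM in leukemic against 25.9 ± 5.41 CPM in non-leukemic libraries. Cd93 (0.72 ± 0.15, adjusted p = 0.00475) and Myb (0.62 ± 0.13, adjusted p = 0.00644) also rose, and both are found in blood precursors outside the B lineage. Cd24a, a surface protein that red cell precursors and neutrophils share, fell by 1.5 ± 0.18 (adjusted p = 0.000122), to 419 ± 89.2 CPM against 1127 ± 272 CPM. Without female leukemic replicate 1, the list had 5 rising and 2 falling, and 2 also fell without female leukemic replicate 2 or male non-leukemic replicate 3. The genes of antigen receptor rearrangement, Rag1 (0.72 ± 0.65), Rag2 (0.25 ± 0.33) and Dntt (0.79 ± 0.28, adjusted p = 0.0747), and the cytokine receptor gene Il7r (-0.16 ± 0.24) did not pass.

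Of 18 genes of B cell identity and receptor signalling, none passed in edgeR, beside 17.9% of all genes. Only Bank1, a signalling adaptor, had an unadjusted p under 0.05 there (-0.74 ± 0.24, adjusted p = 0.0514 with edgeR). The median was -0.02. Limma-voom called none and DESeq2 called 1 of them lower, and so did the same test without female non-leukemic replicate 3 or without either of female leukemic replicates 2 and 3, while 2 were lower without female leukemic replicate 1. Pou2af1, a B cell coactivator, was at 0.32 ± 0.19 over both sexes and rose in females (0.83 ± 0.18, adjusted p = 0.014), and Bank1 fell in males (adjusted p = 0.00967).

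Of 18 other mature B cell genes, 4 rose and 0 fell (median 0.05), where 8.71% of all genes rose and 9.2% fell. Among the 4 were S1pr1 (1.17 ± 0.22, adjusted p = 0.00253 with edgeR), Ccr7 (0.86 ± 0.18, adjusted p = 0.00612) and Klf2 (0.66 ± 0.18, adjusted p = 0.0242). These 3 genes belong to lymphocyte homing and are also made by T cells. Trac, a T cell receptor chain, averaged 218 ± 90.1 CPM in leukemic against 17.4 ± 7.88 CPM in non-leukemic libraries. Whether T cells had a part in the rise of these 3 genes was not tested. Ighd, the heavy chain of IgD on mature B cells, did not pass over both sexes (-0.39 ± 0.28) and fell in males (-1.06 ± 0.29, adjusted p = 0.0497). Plasmacytoid dendritic cells share several B lineage genes. Of 12 of their markers, 2 rose and 4 fell (median 0.08), beside 8.71% and 9.2% of all genes. Their sum held 0.0405 to 0.0584% of counts in leukemic and 0.0353 to 0.0639% in non-leukemic libraries, and their defining gene Siglech fell by 1.30 ± 0.23 (adjusted p = 0.00216).

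**Figure D4:**
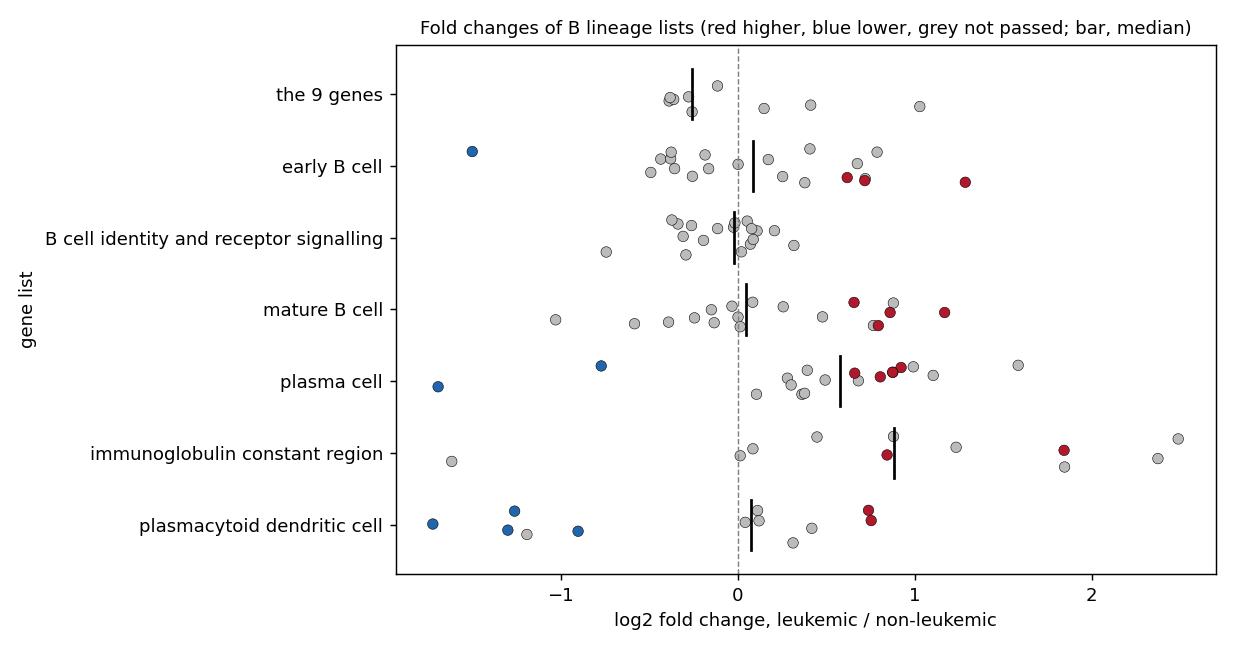
Log2 fold change, leukemic over non-leukemic, of each gene of the B lineage lists and of the plasmacytoid dendritic cell list, 1 point a gene. Red points are higher and blue points lower at an adjusted p under 0.05, grey points did not pass, and bars are list medians. The plasma cell (0.58) and constant region (0.88) medians lie to the right of the 9 genes (-0.26).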

How the data were processed

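The authors deposited whole-number counts per gene, 1 column per library, with no normalization. Per the labels' protocols, 1 ng of RNA was amplified with a SMARTer kit before Nextera XT tagmentation, which mark neither strand nor molecules, so overlapping and antisense genes are not separated. The submitters' processing notes list the build GRCm39, the aligner STAR 2.7.9a, featureCounts, Subread 2.0.1, fastp 0.23.1, bcl2fastq 2.19.1, R 4.0.2 and DESeq2 1.28.1, with no settings.

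Here, CPM were computed from total counts. Genes were filtered with filterByExpr over the 4 groups (15758 left) and scaled by TMM, and tested with edgeR 4.0.16 (quasi-likelihood, robust; R 4.3.3), with Benjamini-Hochberg adjustment over all of them. Leukemic against non-leukemic used sex as a term, and within-sex effects and the interaction came from 4 group means. SE is the log2 fold change over the root of F. Likeness used log2 CPM with a prior count of 2. Alternatives were RLE scaling, DESeq2 1.42.0, limma-voom 3.58.1, no filter or 5 CPM in 3 libraries, no sex term, the libraries of that sex alone, a replicate block and each library left out. The pipeline was tested on simulated data.

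The members and lists were chosen with earlier results of these data known. Genes were named by rule: all members, and per list the 4 tested genes of lowest p. Other genes named beside a count were chosen after their values were seen. Libraries of a group all differed beyond sampling noise (chi-square per degree of freedom of 24.7 or more). Exon lengths came from GENCODE M21 (GRCm38). Some genes are not reported here.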

Additional observations from a re-analysis of the deposited data

Results flagged for a closer look

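Vpreb1 in female leukemic replicate 2, at 41.9 CPM, lay far above the other 5 leukemic libraries (10.9 to 18.4 CPM), further than Dixon's 95% limit for a group of 6. Ebf1 and Igll1 were also highest in that library, and Jchain and Mzb1 were lowest of the female leukemic group there. The check was run on 18 groups, 9 genes in each condition, and chance flags about 1 in 20.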

How the results depend on the processing

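No member passed in leukemic against non-leukemic under any of the 20 alternatives. With both male non-leukemic replicate 3 and female leukemic replicate 1 left out (added after seeing the data, as libraries that differ from their groups), 4717 genes passed, 2368 in females and 2728 in males, and log2 fold changes changed sign for Ms4a1 (-0.186 over both sexes, -0.0789 in females, -0.292 in males), Ebf1 in females (0.0991) and Vpreb1 in females (0.167); female against male was 0.204 for Ebf1 and -0.449 for Ms4a1. DESeq2 called 2359 genes in females, 2053 in males, 23 in the interaction and 113 for female against male, 3 members among the last; limma-voom called 5 there. Other sign changes were of values near 0: Vpreb1 in females (0.0164 with RLE or DESeq2, 0.0214 unfiltered, 0.0296 at 5 CPM, 0.0186 from females alone), Igll1 in females (-0.0449 with limma-voom) and Ms4a1 with limma-voom (-0.0448 for the interaction, 0.0388 for female against male). Same-numbered libraries of different groups were about as alike as others (r -0.109 to 0.079, against -0.0951 to 0.104, with group means removed). With 3 libraries a group, these r depend on each other and cannot exclude a pairing. A replicate block changed no member's call, and Igll1 in females was at -0.00998 and Ms4a1 for female against male at 0.0324.

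Leaving out each library in turn gave 2108 to 3910 genes over both sexes, 504 to 1773 genes in females, 513 to 2087 in males, 0 to 4 for female against male and 0 to 2 members in females. Log2 fold changes ran from -0.319 to 0.0456 for Cd79b and -0.0069 to 0.456 for Ms4a1 over both sexes. In females they ran from -0.584 to 0.191 for Ebf1, -0.0908 to 0.21 for Pax5, -0.395 to 0.248 for Vpreb1, -0.264 to 0.402 for Igll1 and -0.0783 to 0.499 for Ms4a1; in males from -0.322 to 0.713 for Ms4a1 and -0.337 to 0.547 for Jchain. The interaction ran from -0.182 to 0.59 for Ebf1 and -0.458 to 0.573 for Ms4a1, and female against male from -0.186 to 0.195 for Ebf1 and -0.268 to 0.233 for Ms4a1. Mean r was -0.766 to -0.252 between early and plasma cell genes (-0.334 without the 3 female leukemic libraries) and 0.454 to 0.797 among mature genes. The causes were not tested. With 3 libraries a group, intervals of Jchain and Mzb1 span over 2 log2 units within a sex.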
